A study of Mus musculus with 12 samples.

Results

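The trametinib response of partially reprogrammed C790 cells was measured by comparing 3 +dox trametinib arrays with 3 +dox DMSO arrays, chosen by their labels from the 12 arrays of the series and described over 18193 genes with 1 probe set each. C790 is an Nras-mutant mouse melanoma cell line. All cells carried a lentiviral vector in which a tetracycline-responsive promoter drives Oct4, Klf4 and Sox2, with a blasticidin resistance gene, and a further vector for the doxycycline-dependent activator M2 and mCherry. The +dox cells had received doxycycline for 20 days and were treated with DMSO or trametinib for 72 h. The −dox cells (3 DMSO and 3 trametinib arrays) carried the same vectors without doxycycline. They entered the choice of probe set and the estimate of the spread behind every test, and served for the test of whether the response differed between the cell states. The cells were a transduced population of 1 line, the trametinib dose on the arrays was not given in the sources used here, and the labels do not say whether the 3 replicates came from separate cultures, although the study describes its data in general as coming from independent experiments. The p-values measure the spread among these arrays.

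Trametinib blocks MEK1 and MEK2, the kinases that phosphorylate ERK1 and ERK2. ERK signalling drives immediate early genes, D-type cyclins and entry into the cell cycle, and it also induces its own inhibitors, such as dual-specificity phosphatases and Sprouty proteins. In melanocytes and melanoma cells the same pathway influences the pigment programme that the transcription factor MITF controls. Interferon-stimulated genes are switched on through JAK and STAT proteins and restrict viruses and present antigen.

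The labels call the cells melanoma. Of 8 melanocyte markers only Mitf, Pmel and Sox10 had a mean above the background level of 4.86 on the log2 scale, which is the 95th percentile of 86 probe sets of sensory receptor genes. The defining pigment genes Tyr, Tyrp1, Dct, Mlana and Slc45a2 stayed under it in both +dox groups. Of 17 leukocyte markers 9 had a mean above background in a +dox group. Among these Laptm5 was at 8.15 to 9.22 on the 6 arrays (named after its values were seen). Cd3g rose and Itgam fell. Ptprc, the pan-leukocyte marker, was under background, between 2.75 and 2.98 on all 6 arrays. Summed over the leukocyte list, linear expression was 1100 to 1408 on the DMSO arrays and 1201 to 1458 on the trametinib arrays. These sums mix members that moved in opposite directions, so they do not show a steady level of the list. The mean of Cd3g went from 4.83 to 9.01, that of Laptm5 from 8.95 to 8.35 and that of Cd68 from 7.79 to 6.05. Laptm5 and Cd68 were not called (adjusted p = 0.23 and 0.061 in limma), and Cd68 was named after its values were seen. None of 5 endothelial and none of 4 keratinocyte markers was called, where 9.64% of all genes were. In both +dox groups 3 of the endothelial and 2 of the keratinocyte markers were under background. Krt10, a keratin, had a log2 change of 0.97 (adjusted p = 0.001 in limma, under 2-fold) and was named after its values were seen. The median log2 expression over the genes was 6.57 to 6.68 on the 6 arrays. Across genes, the +dox arrays of a group correlated at 0.991 to 0.995, whereas −dox DMSO 1 stood apart from its group with correlations of 0.979 and 0.984 where the other two arrays had 0.997. Without it 1815 genes were called in +dox cells.

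Trametinib raised 863 genes and lowered 891 of the 18193 genes. These calls needed a Benjamini-Hochberg adjusted p from limma under 0.05 together with a change over 2-fold. This was 9.64% of all genes, 4.74% up and 4.90% down. The arrays of both groups did not overlap for 1733 of these 1754 genes, and for 40.7% of all genes. Rises exceeded 4-fold for 217 genes and 16-fold for 29, and falls did so for 154 and 17. The median change of all genes was 0.02 on the log2 scale, with 5th and 95th percentiles of -1.02 and 1.01, and the median standard error of a change was 0.14.

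Genes that rose had a median log2 expression of 7.19 on the DMSO arrays, against 9.06 for genes that fell and 6.61 for all genes. With the genes split into 4 groups of equal size by DMSO level, 158 rose and 454 fell in the group with the highest levels, whereas 301 rose and 88 fell in the group between 4.14 and 6.61. The DMSO level is the baseline of the change, so this contrast is in part fixed by the sorting, and on the trametinib arrays the order was turned, with medians of 8.91 for risen and 7.46 for fallen genes. A group mean under the background level was found on the DMSO side for 123 risen genes and on the trametinib side for 92 fallen genes, and their change is a lower bound, counted from the background level to the mean of the other group. A further 12 called genes were under background in both groups and get no fold. Smaller RNA amounts per cell and fewer cells of a type cannot be told apart in such bulk samples.

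**Figure D1:**
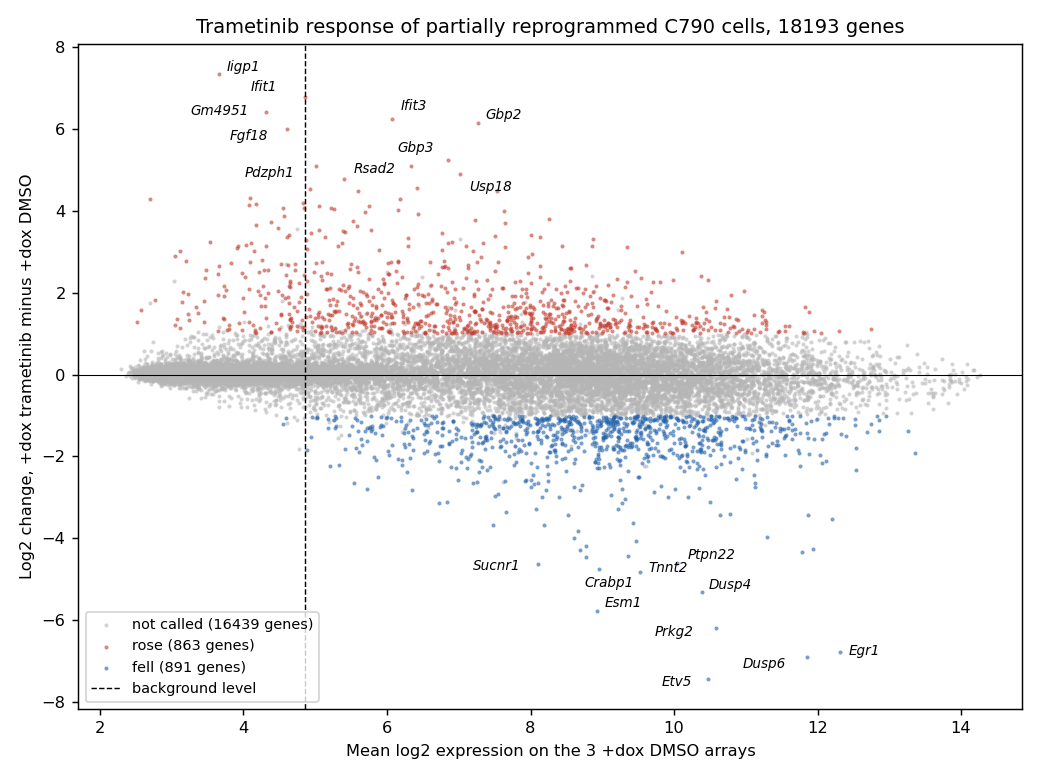
Each point is 1 of 18193 genes, with its mean log2 expression on the 3 +dox DMSO arrays on the x axis and its measured log2 change with trametinib on the y axis. Red points are the 863 genes that rose and blue points the 891 that fell, grey points were not called, the dashed line is the background level of 4.86, and names mark the 10 largest rises and falls. Of the 10 largest rises Iigp1, Gm4951, Fgf18 and Ifit1 had DMSO means at or under background.

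The 10 largest falls held 4 genes of the ERK feedback and early transcription factor lists (Dusp6, Dusp4, Egr1 and Etv5) and 6 genes of no list. Etv5, a PEA3-type ETS transcription factor, had log2 expression of 10.75, 10.25 and 10.44 on DMSO arrays 1 to 3 and of 2.87, 2.92 and 3.38 on trametinib arrays 1 to 3. The groups were far apart, all trametinib values lay under background, so Etv5 fell by at least 5.62 log2 units (adjusted p = 2e-08). Prkg2, the membrane-bound cGMP-dependent protein kinase, went from 10.03, 10.60 and 11.13 to 4.12, 4.21 and 4.83. It fell by at least 5.73 (adjusted p = 2.6e-05), and every trametinib array was under background. Esm1, which encodes the secreted proteoglycan endocan, was at 8.78, 8.60 and 9.41 with DMSO and at 2.92, 3.32 and 3.24 with trametinib, so that it fell by at least 4.07 (adjusted p = 9.5e-05).

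Tnnt2, cardiac troponin T, fell by at least 4.66 (adjusted p = 5e-04). Its trametinib values of 3.92, 5.19 and 4.99 lay around background and its DMSO values between 9.03 and 9.93. Crabp1, which binds retinoic acid in the cytoplasm, was at 9.37, 8.01 and 9.49 with DMSO and at 3.92, 4.25 and 4.45 with trametinib. It fell by at least 4.10 (adjusted p = 1.4e-05), while its relative Crabp2 rose from 4.90, 4.91 and 4.95 to 10.22, 8.89 and 9.22 (log2 change 4.52, standard error 0.26, adjusted p = 3.4e-06). The 2 retinoic acid binding proteins thus changed in opposite directions. The arrays did not overlap for Crabp2, and for Crabp1 this was required by the choice of the 10. Sucnr1, the receptor for succinate, fell by at least 3.24 (adjusted p = 3.7e-05) from values of 7.17 to 8.70 to values of 3.44 to 3.53. Ptpn22, a tyrosine phosphatase best known from lymphocyte signalling, was at 9.04, 10.93 and 10.16 with DMSO and at 4.89, 5.34 and 6.10 with trametinib. Both groups were above background, and the log2 change was -4.60 (standard error 0.41, adjusted p = 2.6e-05).

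Beyond these 10, Ankrd1, a cardiac ankyrin repeat protein, fell from 11.17, 12.23 and 12.39 to 6.37, 8.80 and 7.82 (log2 change -4.27, standard error 0.71, adjusted p = 0.0011). Nppb, the precursor of brain natriuretic peptide, fell from 10.30, 12.53 and 12.52 to 7.39, 8.48 and 6.49 (log2 change -4.33, standard error 0.87, adjusted p = 0.0033). DMSO array 1 was the lowest of its group for both genes, and the groups did not overlap. Sele, the adhesion molecule E-selectin, fell by at least 3.83 (adjusted p = 7.5e-04), with all 3 trametinib values between 4.06 and 4.78. Crabp2, Ankrd1, Nppb and Sele were named after their values were seen.

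Of the 10 largest rises 7 were members of the interferon lists and 3 were not. Of the 3, Gm4951 lies beside Iigp1 on chromosome 18 in a run of 3 risen genes. Gm4951 had DMSO values of 3.73, 4.12 and 5.09 and trametinib values of 11.20, 10.52 and 10.48, and rose by at least 5.87 on the log2 scale (adjusted p = 2.5e-05). Pdzph1 went from 5.97, 4.48 and 4.60 to values of 9.93 to 10.38 (log2 change 5.09, standard error 0.44, adjusted p = 2.5e-05). DMSO array 1 was the highest of its group for Pdzph1 and the lowest for Gm4951, and in both genes the trametinib arrays lay far above all DMSO arrays. Fgf18, a fibroblast growth factor, was at 5.26, 4.28 and 4.29 with DMSO and at 10.76, 10.32 and 10.74 with trametinib, a rise of at least 5.75 (adjusted p = 3.4e-06).

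**Figure D2:**
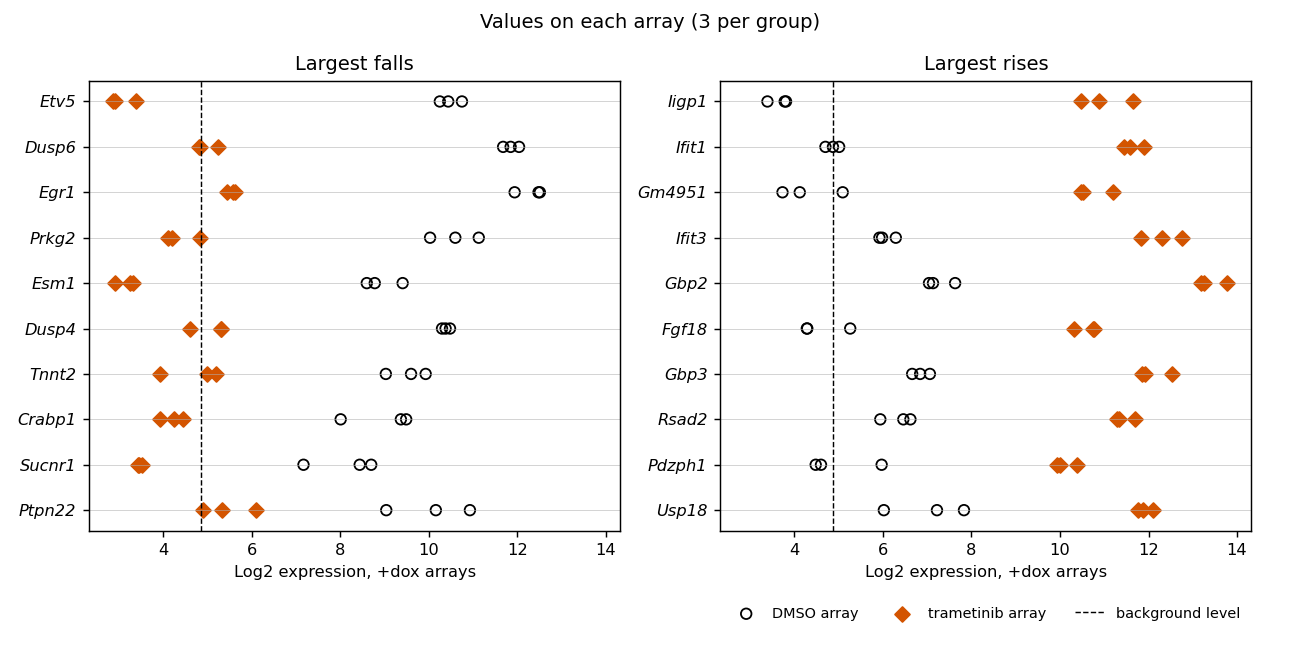
Log2 expression on each of the 6 +dox arrays (x axis) for the 10 largest falls (left) and the 10 largest rises (right), with open circles for DMSO arrays, filled diamonds for trametinib arrays and a dashed line at the background level of 4.86. Groups without overlap were a condition for choosing these 20 genes. The trametinib values of Etv5, Esm1, Crabp1, Sucnr1 and Prkg2 all lay under background.

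Feedback inhibitors of ERK signalling fell together. Of 12 members 9 fell, Rgs2 rose and Dusp5 and Lrig1 did not pass, where 4.90% of all genes fell and 4.74% rose. The median change was -2.04 against 0.02 for all genes. Spry4 and Spry1, Sprouty inhibitors of receptor signalling, were both lower on every trametinib array. Spry4 fell by at least 3.22 (adjusted p = 3.7e-05) from 8.60, 7.59 and 8.05 to 4.20, 5.23 and 4.97, and Spry1 fell by 2.93 (standard error 0.61, adjusted p = 0.0043) from values of 9.03 to 9.27 to values of 6.15 to 6.22. Errfi1, an inhibitor of EGF receptors, fell by 2.31, and Spred1, which recruits the RAS inhibitor neurofibromin, fell by 1.78. Rgs2, which limits G protein signalling, moved the other way, from 8.80, 8.86 and 8.76 to 10.16, 10.33 and 10.28 (log2 change 1.45, standard error 0.26, adjusted p = 0.0018). Dusp5, a nuclear ERK phosphatase, had a log2 change of -0.64 (adjusted p = 0.14), and Lrig1, which restrains receptor kinases, of 0.46 (adjusted p = 0.22). Errfi1, Spred1, Dusp5 and Lrig1 were named after their values were seen.

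Immediate early and ERK-induced transcription factors were split. Of 26 members 10 fell, 5 rose and 11 did not pass, where 4.90% of all genes fell and 4.74% rose. The median change was -0.76. Myc, which drives growth and ribosome synthesis, was at 11.12, 11.42 and 11.35 with DMSO and at 6.82, 7.98 and 7.19 with trametinib. The groups were separated by over 3 log2 units, and Myc fell by 3.97 (standard error 0.40, adjusted p = 5.7e-05). Fosl1, an AP-1 subunit, fell by at least 3.80 (adjusted p = 5.7e-05), and Etv4, a relative of Etv5, fell by 2.99 (adjusted p = 9.4e-06). Atf3, a stress-induced factor, rose by 2.21 (standard error 0.36, adjusted p = 9.2e-04) from 5.38, 6.31 and 6.17 to 8.72, 8.26 and 7.52. Fosl2, a further AP-1 subunit, rose by 1.26 (adjusted p = 1.3e-04), and by 0.67, under 2-fold, with the mean of its probe sets, a setting that left 3 risen members. Jun and Fos were not called, with log2 changes of 0.05 (adjusted p = 0.94) and -0.96 (adjusted p = 0.15), and Fos on trametinib array 1 lay above DMSO array 1. Without +dox trametinib 1 the log2 change of Fos was -1.42 (adjusted p = 0.037). Etv4, Jun and Fos were named after their values were seen.

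In the cascade itself, from RAS to ERK and its kinases, 14 of 21 listed members were measured (4 up and 1 down in limma at any size). Of the 14, 1 was called, where 9.64% of all genes were. This was Map3k8, a kinase that can activate MEK, with a log2 change of 1.74 and DMSO values of 5.98 to 6.17 against trametinib values of 7.73 to 7.90. Receptor tyrosine kinases were mostly uncalled, with 2 of 28 up and 1 down, where 4.74% of all genes rose and 4.90% fell. Their median was -0.04. The number down was 2 without +dox DMSO 1, +dox trametinib 3 or −dox DMSO 1. Ror1, a receptor for Wnt5a, was at 5.25, 4.02 and 3.87 with DMSO and at 8.09, 8.03 and 8.16 with trametinib. It rose by at least 3.23 (adjusted p = 7.8e-05). Egfr, the EGF receptor, rose by 1.73 (standard error 0.32, adjusted p = 0.002), with values of 7.06, 5.92 and 6.31 against 8.73, 7.51 and 8.25, and by 0.61, under 2-fold, with the mean of its 7 probe sets. Erbb3, the neuregulin receptor, fell by 2.22 (standard error 0.29, adjusted p = 2.8e-04). Met, the receptor for hepatocyte growth factor, had a log2 change of -0.18 (adjusted p = 0.45, named after its values were seen).

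Among 31 growth factor ligands 5 rose and 2 fell, where 4.74% of all genes rose and 4.90% fell. Besides Fgf18, Pros1, which activates TAM receptors, rose by 1.81 (standard error 0.23, adjusted p = 2.1e-04), and Angpt1, the ligand of Tie2, rose by 1.71 (adjusted p = 0.0092). Nrg1, the ligand of Erbb3, fell by 2.25 (standard error 0.27, adjusted p = 1.4e-04) from 7.23, 7.60 and 7.46 to 4.99, 5.34 and 5.20. Hbegf, a ligand of the EGF receptor, fell by 1.87 (adjusted p = 0.0084). Erbb3 and its ligand Nrg1 were thus lower together. Egfr and Hbegf, which is not the only listed ligand of Egfr, went in opposite directions. The count of risen ligands was 3 without +dox DMSO 3 and 3 without +dox trametinib 3. Epha2, a receptor for ephrins, fell by 2.86 (standard error 0.36, adjusted p = 1.9e-04), from values of 9.14 to 10.14 to values of 6.02 to 7.47.

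Of the Wnt list 4 of 26 members rose and 0 fell at an adjusted p under 0.05 and over 2-fold (5 up and 1 down in limma at any size). By the same rule 4.74% of all genes rose and 4.90% fell. Frzb and Sfrp1, secreted proteins that bind Wnt ligands, kept their calls under every setting tried. Frzb rose by at least 2.04 (adjusted p = 1.2e-05) and Sfrp1 by 2.20 (standard error 0.40, adjusted p = 0.0018), from 6.74, 5.93 and 6.62 to 8.91, 8.43 and 8.55. The other called members were Wnt5a, a Wnt ligand, and Dkk2, a Wnt antagonist, and the count was 2 without +dox DMSO 2, without +dox DMSO 3 or without +dox trametinib 3. Skil, a repressor of SMAD signalling, rose by 1.31 (standard error 0.15, adjusted p = 1.3e-04) in the BMP and TGF-beta list, of which 4 of 21 members rose. That count was 1 without +dox DMSO 2 and 2 without +dox trametinib 3.

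Genes of DNA replication and mitosis fell as groups. All 31 measured mitosis genes fell, with changes between -2.27 and -1.04 and a median of -1.89, and 22 of 29 DNA replication genes fell, with a median of -1.51, against 4.90% of all genes. No gene of either list rose at any size at an adjusted p under 0.05. Aurkb, a kinase of chromosome segregation, had log2 expression of 9.74, 10.30 and 10.20 with DMSO and of 7.57, 8.76 and 7.11 with trametinib (log2 change -2.27, standard error 0.43, adjusted p = 0.0024). Kif2c, a microtubule-depolymerising kinesin, fell by 2.24 (standard error 0.33, adjusted p = 5.3e-04). Cdt1, which loads the replicative helicase, fell by 2.46 (standard error 0.29, adjusted p = 1.3e-04) from 10.93, 11.33 and 11.07 to 8.73, 9.26 and 7.97. Ung, the uracil-DNA glycosylase, fell by as much, from 7.72, 8.39 and 8.01 to 5.45, 6.44 and 4.84. Trametinib array 2 was the highest and array 3 the lowest of its group for Aurkb, Cdt1 and Ung, and the groups did not overlap.

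The same order held over the lists. Measured from the DMSO mean of each gene, the mitosis list had medians of -2.04, -1.13 and -2.52 on trametinib arrays 1, 2 and 3, and the DNA replication list of -1.44, -0.91 and -2.08. On the DMSO arrays the mitosis medians lay between -0.26 and 0.29, so the groups did not overlap. Without 1 array in turn, 27 to 31 mitosis genes and 16 to 24 replication genes fell. Pcna, the sliding clamp, was not called (log2 change -0.70, adjusted p = 0.068, named after its values were seen). Of the G1 list, Ccnd1, cyclin D1, fell by 2.33 (standard error 0.22, adjusted p = 3.8e-05) from 12.53, 12.50 and 12.56 to 9.64, 10.74 and 10.22. Of the 21 members of this list 19 were not called, where 9.64% of all genes were called. Cdkn1a and Cdkn1b, the p21 and p27 inhibitors, had log2 changes of -0.55 (adjusted p = 0.052) and 0.33 (adjusted p = 0.25) and were named after their values were seen.

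Promoters of fallen cell cycle genes are shown because short elements bound by cell cycle repressors and activators recur in them. The windows are from RefSeq on GRCm38.p6, from 250 bases before to 50 bases after the start of transcription, 5′ to 3′ on the strand of the gene, and capitals mark the match. The CHR element was searched as TTTGAA and the E2F element as TTTCCCGC or TTTGGCGC, each on both strands. Cdk1 (chr10:69352863-69353162, minus strand), the kinase that starts mitosis, has 2 CHR matches, at bases -71 and -15 from the start. Cenpa (chr5:30666636-30666935, plus strand), the histone of centromeres, has 1 at base 16. Dtl (chr1:191575495-191575794, minus strand), which directs destruction of replication factors, has an E2F match at base -8.
Cdk1: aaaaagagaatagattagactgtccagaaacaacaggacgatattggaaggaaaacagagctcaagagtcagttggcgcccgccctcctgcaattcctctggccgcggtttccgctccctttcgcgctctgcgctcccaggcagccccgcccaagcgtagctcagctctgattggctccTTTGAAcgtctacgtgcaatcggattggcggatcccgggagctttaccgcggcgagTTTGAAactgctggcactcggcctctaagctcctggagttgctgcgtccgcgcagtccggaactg
Cenpa: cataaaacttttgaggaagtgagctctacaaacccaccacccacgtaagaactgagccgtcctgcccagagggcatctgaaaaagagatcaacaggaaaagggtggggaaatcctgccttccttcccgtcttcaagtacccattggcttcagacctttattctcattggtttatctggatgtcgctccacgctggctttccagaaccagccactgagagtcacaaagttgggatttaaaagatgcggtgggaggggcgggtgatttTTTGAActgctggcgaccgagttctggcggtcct
Dtl: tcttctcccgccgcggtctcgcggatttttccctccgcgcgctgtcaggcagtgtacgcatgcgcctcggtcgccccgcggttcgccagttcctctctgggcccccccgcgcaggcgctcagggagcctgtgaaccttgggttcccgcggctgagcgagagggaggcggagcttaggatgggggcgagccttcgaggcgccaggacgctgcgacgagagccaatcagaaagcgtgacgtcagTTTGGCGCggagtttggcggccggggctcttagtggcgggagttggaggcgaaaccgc
On the arrays Cdk1 fell by 1.73 (adjusted p = 0.002), Cenpa by 2.22 (adjusted p = 4e-04) and Dtl by 1.98 (adjusted p = 0.0024), and Cdk1 was named after its values were seen. A CHR match was found in 77.8% of 27 promoters of the mitosis list, in 19.4% of promoters of all fallen genes and in 13.4% of 18009 promoters of all genes. It was found in 14.6% of promoters of the 100 largest falls, in 31.4% of those of the 100 largest rises and in 4 of 8 promoters of the interferon-inducible GTPases. The E2F element was found in 36.7% of 30 promoters of the DNA replication list, in 4.9% of promoters of fallen genes and in 2.3% of all. The CCAAT box, searched as its 5 letters on both strands, was found in 74.1% of mitosis promoters and 37.4% of all. A match is a description of the letters in this window and not a measured site.

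Genes of ribosome biogenesis fell as well. Of 36 genes for ribosomal RNA synthesis, modification and assembly, 22 fell and 0 rose, and 33 were lower in limma at an adjusted p under 0.05 and any size, against 12.5% of all genes lower at any size. The median change was -1.26. Dkc1, the pseudouridine synthase of small nucleolar particles, was at 10.56, 11.01 and 10.77 with DMSO and at 8.57, 8.89 and 8.45 with trametinib (log2 change -2.14, standard error 0.14, adjusted p = 7e-06). Gar1, its partner in these particles, fell by 2.00 (standard error 0.15, adjusted p = 1.2e-05), and Fbl, the methyltransferase fibrillarin, by 1.95 (standard error 0.16, adjusted p = 1.8e-05). Wdr12, an assembly factor of the large subunit, fell by 2.06 (standard error 0.20, adjusted p = 4.7e-05). In all 4 genes the groups were over 1 log2 unit apart.

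Other genes of the list had smaller changes. Ncl, nucleolin, had a log2 change of -0.94 (adjusted p = 7.6e-05) and Npm1, nucleophosmin, of -0.44 (adjusted p = 0.0064), both under 2-fold, and Ncl passed 2-fold with further quantile normalisation (-1.03, adjusted p = 7.1e-05). Ubtf, a factor of ribosomal RNA transcription, had a change of 0.32 (adjusted p = 0.28). Measured from the DMSO mean of each gene, the list had medians of -1.26, -0.95 and -1.27 on trametinib arrays 1, 2 and 3. The count of fallen genes stayed between 19 and 26 when 1 array was left out. Ncl, Npm1 and Ubtf were named after their values were seen.

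All 29 measured antiviral interferon-stimulated genes rose, with changes between 1.10 and 6.78 and a median of 2.74, where 4.74% of all genes rose. Of 10 interferon-inducible GTPases 9 rose, with a median of 3.60. Gbp2, a guanylate-binding protein of cell-autonomous defence, was at 7.13, 7.04 and 7.63 with DMSO and at 13.78, 13.19 and 13.25 with trametinib (log2 change 6.14, standard error 0.35, adjusted p = 3.4e-06). The groups were far apart, and Iigp1, an immunity-related GTPase, rose by at least 6.13 (adjusted p = 8.5e-06) from values under background on all DMSO arrays. Gbp3, a relative, rose by 5.25 (standard error 0.39, adjusted p = 1.1e-05), Gbp6 by 4.49 (standard error 0.56, adjusted p = 2e-04) and Irgm1, a regulator of such GTPases, by 3.42 (adjusted p = 3.6e-05). Gbp8, the GTPase that was not called, had values of 6.33, 4.87 and 6.35 with DMSO and of 7.90, 6.43 and 7.42 with trametinib (log2 change 1.40, adjusted p = 0.15, and 0.018 with the replicate number as a block and 0.046 without −dox trametinib 1). Guanylate-binding proteins, like the Oas and H2 genes, have close copies, and which copies a probe set reads was not checked, so the values of single copies are uncertain.

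Antiviral effectors with different modes of action rose side by side. Rsad2, viperin, which makes a chain-terminating nucleotide, was at 5.94, 6.62 and 6.46 with DMSO and at 11.70, 11.34 and 11.28 with trametinib (log2 change 5.10, standard error 0.42, adjusted p = 1.8e-05). Usp18, which removes ISG15 and dampens interferon receptor signalling, rose by 4.89 (standard error 0.53, adjusted p = 8.4e-05), from 6.02, 7.83 and 7.22 to 12.11, 11.87 and 11.76. Zbp1, a sensor of Z-form nucleic acids, rose by 4.49 (adjusted p = 1e-05), and Mx1, which blocks viral ribonucleoproteins, by 3.63 (adjusted p = 4.1e-04). Oas1a, which makes the activator of RNase L, rose by 3.69 (adjusted p = 3.1e-04), and Oasl2 by 4.55 (adjusted p = 2e-05). DMSO array 1 was the lowest of its group for Usp18 and Oas1a, and the groups did not overlap in either.

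Irf7, a regulator of interferon genes, rose by 3.39 (adjusted p = 5.5e-05), Stat2, which transmits the interferon signal, by 2.54 (adjusted p = 2e-05) and Irf9, its partner, by 2.11 (adjusted p = 2.2e-04). Stat2 stayed between 6.06 and 6.21 on the DMSO arrays and between 8.59 and 8.75 on the trametinib arrays. Over the antiviral list the medians were 3.05, 2.62 and 2.54 on trametinib arrays 1, 2 and 3, measured from the DMSO mean of each gene. The count of risen antiviral genes stayed between 26 and 29, and that of GTPases between 9 and 10, when 1 array was left out. Irgm1, Gbp8, Zbp1, Mx1, Oas1a, Oasl2, Irf7, Stat2 and Irf9 were named after their values were seen.

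Promoters of 4 strongly risen genes are shown because the core of the interferon-stimulated response element, which STAT and IRF factors bind, recurs in them. It was searched as GAAANNGAA on both strands, in the same windows, and capitals mark the matches, which on these strands read TTCNNTTTC. Ifit1 (chr19:34640639-34640938, plus strand) has 3 matches, at -109, -103 and -84 from the start, of which the first pair overlap. Ifit3 (chr19:34583279-34583578, plus strand) has 3, at -155, -121 and -102. Gbp2 (chr3:142620413-142620712, plus strand) has 1 at -58, and Rsad2 (chr12:26456403-26456702, minus strand) has 1 at -119.
Ifit1: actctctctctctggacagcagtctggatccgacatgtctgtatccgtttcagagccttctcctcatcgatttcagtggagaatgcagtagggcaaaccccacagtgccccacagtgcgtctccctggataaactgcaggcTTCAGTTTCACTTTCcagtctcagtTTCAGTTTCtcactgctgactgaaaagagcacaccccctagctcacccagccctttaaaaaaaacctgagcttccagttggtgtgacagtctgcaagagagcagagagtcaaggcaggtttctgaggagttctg
Ifit3: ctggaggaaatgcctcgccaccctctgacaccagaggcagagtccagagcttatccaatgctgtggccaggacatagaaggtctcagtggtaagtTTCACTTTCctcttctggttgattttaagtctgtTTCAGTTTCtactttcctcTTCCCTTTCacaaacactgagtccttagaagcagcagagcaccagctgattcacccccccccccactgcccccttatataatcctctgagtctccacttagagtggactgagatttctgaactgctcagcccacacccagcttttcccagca
Gbp2: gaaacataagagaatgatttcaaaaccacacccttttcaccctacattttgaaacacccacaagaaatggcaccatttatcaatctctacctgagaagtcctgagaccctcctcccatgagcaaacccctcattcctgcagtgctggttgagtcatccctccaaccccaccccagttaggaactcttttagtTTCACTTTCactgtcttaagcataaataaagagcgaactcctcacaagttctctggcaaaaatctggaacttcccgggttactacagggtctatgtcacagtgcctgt
Rsad2: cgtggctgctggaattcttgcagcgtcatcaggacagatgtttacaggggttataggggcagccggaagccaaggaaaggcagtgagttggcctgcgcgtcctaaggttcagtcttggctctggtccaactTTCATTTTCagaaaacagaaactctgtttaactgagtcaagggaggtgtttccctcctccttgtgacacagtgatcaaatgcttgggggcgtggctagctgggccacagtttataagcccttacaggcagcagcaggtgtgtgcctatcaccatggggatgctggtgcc
Ifit1 and Ifit3, which bind viral RNA, rose by at least 6.78 and by 6.24, the latter from values of 5.92 to 6.29 to values of 11.84 to 12.76. The core was found in 56.5% of 23 promoters of the antiviral list, in 6 of 8 promoters of the GTPases and in 33.3% of 12 promoters of the MHC class I list. It was found in 27.9% of 86 promoters of the 100 largest rises, in 11.0% of promoters of all risen genes and in 7.4% of all promoters.

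Antigen presentation by MHC class I rose in part. Of 13 members 8 rose and 0 fell, where 4.74% of all genes rose, and the median change was 1.12. Nlrc5, the transactivator of MHC class I genes, was at 3.56, 4.36 and 4.32 with DMSO and at 8.74, 8.07 and 7.88 with trametinib. It was under background on all DMSO arrays and rose by at least 3.37 (adjusted p = 5e-05). Cd274, which encodes the checkpoint ligand PD-L1, rose by 3.49 (standard error 0.41, adjusted p = 1.3e-04), from 5.03, 5.40 and 5.82 to 9.45, 8.45 and 8.81. Psmb8 and Psmb9, subunits of the immunoproteasome, rose by 2.25 (standard error 0.43, adjusted p = 0.0024) and 2.08 (standard error 0.41, adjusted p = 0.0033).

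The class I chains themselves, already high with DMSO, had smaller changes. B2m, the invariant chain, was at 12.77, 12.72 and 12.74 with DMSO and at 14.08, 13.90 and 13.61 with trametinib (log2 change 1.12, adjusted p = 0.0017). H2-K1 had a log2 change of 0.98 (adjusted p = 0.004), under 2-fold, and no overlap between values of 11.76 to 11.91 and of 12.74 to 12.90, and it passed 2-fold without +dox DMSO 2 (1.01), +dox DMSO 3 (1.00) or +dox trametinib 3 (1.03). Tap1, a subunit of the peptide transporter, rose by 1.45 (adjusted p = 0.002), and by 0.46, under 2-fold, with the mean of its 4 probe sets. B2m, H2-K1 and Tap1 were named after their values were seen.

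The interferon genes Ifnb1 and Ifna4 were not detected above background. Ifnb1 stayed between 3.81 and 4.24 and Ifna4 between 3.35 and 3.77 on all 6 arrays. Of 19 genes for interferons, their receptors, sensors and regulators, 3 rose and 0 fell (4 up and 1 down at any size). By the rule with 2-fold, 4.74% of all genes rose and 4.90% fell. Tlr3, a sensor of double-stranded RNA, rose by 2.60 (standard error 0.27, adjusted p = 6e-05) from values of 6.80 to 6.91 to values of 9.15 to 9.87. Irf1, a transcription factor of the interferon response, rose by 1.27 (standard error 0.18, adjusted p = 4.5e-04). The receptor chains Ifnar1 and Ifngr1 had log2 changes of 0.32 (adjusted p = 0.086) and 0.25 (adjusted p = 0.19). The third called gene was Jak2, a kinase of cytokine receptors, with a change of 1.08, which was 0.98 without +dox trametinib 1 and 0.81 with the mean of its probe sets. Ifnb1, Ifna4, Ifnar1 and Ifngr1 were named after their values were seen.

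Of 24 chemokines and cytokines 2 rose and 0 fell, where 4.74% of all genes rose, with a median change of 0.20. Cxcl10, a chemokine that interferon induces, was at 5.29, 5.49 and 5.01 with DMSO and at 10.01, 9.12 and 8.76 with trametinib (log2 change 4.03, standard error 0.76, adjusted p = 0.0023). The other was Il6, for which trametinib array 3, at 6.92, was close to DMSO arrays 2 and 3, both at 6.11. Il6 lost its call without +dox DMSO 1, +dox trametinib 1 or +dox trametinib 2 (adjusted p = 0.11 each). Cxcl1 and Ccl7 had larger values on all trametinib arrays, 10.08 to 11.44 against 8.56 to 9.09 and 10.72 to 11.39 against 8.73 to 9.71. Neither was called, with log2 changes of 2.05 (adjusted p = 0.12) and 1.87 (adjusted p = 0.074), and both were with the replicate number as a block and without −dox DMSO 1, as Ccl7 was without −dox trametinib 1 (adjusted p = 0.011). The count of the list was 1 without +dox DMSO 1, without +dox trametinib 1 or without +dox trametinib 2, 4 without −dox DMSO 1, 4 with the block or with array weights and 5 with the 6 +dox arrays alone. Cxcl1 and Ccl7 were named after their values were seen.

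Cd3g, which encodes CD3 gamma of T cells, rose by at least 4.15 (adjusted p = 6.7e-07), from 4.59, 4.98 and 4.91 to 8.78, 9.43 and 8.81. The other chains on the marker list were not called. Cd3d had a log2 change of 0.39 (adjusted p = 0.026, under 2-fold), and Cd3e had values of 5.53 to 5.59 with DMSO and of 5.58 to 5.86 with trametinib. Itgam, an integrin chain of myeloid cells, fell by at least 0.74 (adjusted p = 0.013), from 4.19, 6.90 and 5.72 to values of 3.60 to 3.83. Cd3g, Cd3d, Cd3e and Itgam were named after their values were seen.

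Lysosome genes were higher by small amounts with little spread between arrays. Of 30 members 6 rose over 2-fold and 20 passed upward at any size, against 13.8% of all genes, and 0 fell in limma at any size. The median change was 0.73, and measured from the DMSO mean of each gene the list had medians of 0.72, 0.73 and 0.73 on the 3 trametinib arrays. Lamp2, a membrane protein of lysosomes, was at 11.23, 10.86 and 11.25 with DMSO and at 12.69, 12.53 and 12.50 with trametinib (log2 change 1.46, standard error 0.12, adjusted p = 2e-05). Ctsa, a protective carboxypeptidase, rose by 1.33 (standard error 0.09, adjusted p = 8.9e-06) from values of 10.06 to 10.12 to values of 11.39 to 11.46. Neu1, the sialidase that works with Ctsa, rose by 1.17 (adjusted p = 1.6e-04). With the mean of their probe sets Ctsa and Neu1 changed by 0.92 and 0.71, under 2-fold. The cathepsins Ctsb and Ctsd, proteases of lysosomes, had log2 changes of 0.84 (adjusted p = 1.5e-04) and 0.90 (adjusted p = 1.9e-04), under 2-fold, and Tfeb, a master regulator of lysosome genes, of 0.72 (adjusted p = 0.0067). The number of genes over 2-fold was 4 without +dox trametinib 1 and 4 to 7 over all arrays left out. Ctsb, Ctsd and Tfeb were named after their values were seen.

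Extracellular matrix genes changed in both directions. Of 35 members 10 rose, 3 fell and 22 did not pass, where 4.74% of all genes rose and 4.90% fell. The median was 0.48. Dcn, the small proteoglycan decorin, was at 7.15, 5.87 and 5.87 with DMSO and at 9.82, 9.30 and 9.76 with trametinib (log2 change 3.33, standard error 0.41, adjusted p = 1.6e-04). Col15a1, a collagen next to basement membranes, rose by 2.33 (standard error 0.35, adjusted p = 6.5e-04), Nid2, which links laminin and collagen, by 2.28 (standard error 0.49, adjusted p = 0.005) and Col1a1, fibrillar collagen I, by 1.94 (adjusted p = 7.3e-04). Lamb1, a laminin chain, fell by 2.75 (standard error 0.36, adjusted p = 2.7e-04), from 11.31, 10.91 and 11.16 to 7.38, 8.97 and 8.77, and Col18a1, the precursor of endostatin, fell by 1.25 (adjusted p = 0.0014).

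Some fibroblast markers moved with this list. Of 8 such markers 3 rose (Dcn, Col1a1 and Col3a1), where 4.74% of all genes rose. The summed linear expression of the list was 578 to 1068 on the DMSO arrays and 1771 to 2193 on the trametinib arrays. The 3 genes are also members of the matrix list. Pdgfra and Pdgfrb had log2 changes of -0.09 and 0.19 with adjusted p = 0.88 and 0.86, and Col1a2, Lum and Thy1 were under background in both groups. The part of such cells in the matrix result was not tested. Itgb8, an integrin chain that activates TGF-beta, rose by 2.64 (standard error 0.45, adjusted p = 0.0013) from values of 6.65 to 6.88 to values of 9.37 to 9.42, and Mmp11, a matrix protease, by 1.61 (standard error 0.15, adjusted p = 3.8e-05). Plaur, the urokinase receptor, fell by 1.42 (adjusted p = 0.0043). Col1a1 as a single gene, Pdgfra, Pdgfrb, Col1a2, Lum and Thy1 were named after their values were seen.

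Genes of glucose uptake and glycolysis changed in both directions. Slc2a1, the glucose transporter GLUT1, rose by 1.52 (standard error 0.25, adjusted p = 9.8e-04), from 10.75, 10.46 and 10.11 to 12.46, 11.76 and 11.65. Pfkp, a phosphofructokinase, fell by 1.18 (standard error 0.16, adjusted p = 3.1e-04) from values of 11.73 to 11.95 to values of 10.48 to 10.79, and Slc16a1, a lactate transporter, fell by 1.38 (adjusted p = 7.1e-04), or 0.82 with the mean of its probe sets. Of 19 members 4 fell and 2 rose, where 4.90% of all genes fell and 4.74% rose. The other risen gene, Eno2, was not called without +dox trametinib 3 (log2 change 1.18, adjusted p = 0.051), which left 1. Among 26 respiratory chain genes 0 changed over 2-fold in limma, while 8 were lower at any size, where 12.5% of all genes were, and 0 higher, with a median of -0.28. Tfam, which maintains mitochondrial DNA, was the lowest of these at -0.73 (adjusted p = 7.2e-04, named after its values were seen). Of 20 cholesterol genes 3 fell, where 4.90% of all genes fell, and 1 fell without +dox trametinib 1, the array on which the list was lowest.

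In the stress response list 4 of 25 members rose and 2 fell, where 4.74% of all genes rose and 4.90% fell. Atf5, a factor of the integrated stress response, was at 8.42, 9.05 and 8.86 with DMSO and at 11.02, 11.57 and 11.75 with trametinib (log2 change 2.67, standard error 0.26, adjusted p = 4.7e-05). Ddit3, the CHOP factor, rose by 1.24 (adjusted p = 0.0039), and by 0.66 with the mean of its probe sets. The number that rose was 2 without +dox DMSO 1 or +dox DMSO 2. The number that fell was 1 without +dox DMSO 2 and 0 without +dox trametinib 1.

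Of 24 p53 targets 3 rose and 5 fell, and of 23 genes of the BCL2 family and caspases 2 rose and 3 fell, where 4.74% of all genes rose and 4.90% fell. Plk3 and Plk2, polo-like kinases, fell by 2.14 (standard error 0.34, adjusted p = 8.8e-04) and 2.09 (standard error 0.37, adjusted p = 0.0016). Fas, a death receptor, rose by 1.76 (standard error 0.36, adjusted p = 0.0039). Apaf1, the core of the apoptosome, fell by 1.13 (standard error 0.09, adjusted p = 1.8e-05) from values of 9.61 to 9.72 to values of 8.42 to 8.69, and Bcl2, which blocks apoptosis, fell by 1.07 (standard error 0.19, adjusted p = 0.0016). The risen BH3-only genes Bmf and Bcl2l11 were both lost, leaving 0, without +dox DMSO 2, +dox DMSO 3, +dox trametinib 1 or +dox trametinib 3. The number of risen p53 targets was 1 without +dox DMSO 2 or +dox trametinib 1.

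In each lineage list 1 gene rose and 1 fell, of 20 melanocyte, 22 neural crest and 25 pluripotency genes. Of all genes 4.74% rose and 4.90% fell. Of 20 melanocyte genes 13 were under background in both groups. Mitf was at 6.88, 6.56 and 7.47 with DMSO and at 8.70, 7.93 and 7.94 with trametinib (log2 change 1.22, standard error 0.28, adjusted p = 0.0077), and changed by 0.96 (adjusted p = 0.035) without +dox trametinib 1 and by 0.84 with the mean of its probe sets. Pmel, a pigment structural protein, stayed between 5.83 and 6.11 on the 6 arrays. In the neural crest list Aqp1, a water channel, fell by at least 2.62 (adjusted p = 3.7e-05), from 7.17, 7.54 and 7.72 to 3.55, 3.95 and 3.91, and Prrx1, a mesenchymal homeobox factor, rose by 1.24 (standard error 0.17, adjusted p = 4e-04). Ngfr, the nerve growth factor receptor CD271, had a log2 change of 0.43 (adjusted p = 0.58), with values of 6.79 to 7.99 with DMSO and of 7.67 to 7.82 with trametinib.

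Of 25 pluripotency genes 1 rose and 1 fell (4 up and 1 down in limma at any size). The risen gene was Tfcp2l1, a transcription factor of naive pluripotency. It was at 6.90, 5.90 and 6.51 with DMSO and at 11.10, 9.94 and 10.01 with trametinib (log2 change 3.91, standard error 0.41, adjusted p = 6.9e-05). The other called gene, Klf5, fell by 1.58 and lost its call without +dox DMSO 2 (adjusted p = 0.054), +dox DMSO 3 (0.055) or +dox trametinib 1 (0.053). The reprogramming factors were not called. Sox2 was at 6.46, 5.64 and 5.51 with DMSO and at 6.57, 5.78 and 5.94 with trametinib (log2 change 0.23, adjusted p = 0.8). Pou5f1, the gene of Oct4, had a log2 change of 0.43 (adjusted p = 0.082) and Klf4 of 0.72 (adjusted p = 0.042, under 2-fold), and whether these probe sets read the vector RNA was not checked. Nanog and Fut4, whose product makes the SSEA-1 antigen, were under background in both groups. The T-type calcium channel genes Cacna1h and Cacna1g were under background too, at 3.50 to 3.83 and 4.25 to 4.75 on the 6 arrays. Pou5f1, Klf4 and Nanog were named after their values were seen.

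Other lists held few called genes, but they were also short, with 11 to 25 measured members. Of all genes 4.74% rose and 4.90% fell, so counts of this size do not show fewer changes than among all genes. Among Eph receptors and ephrins, epithelial-mesenchymal factors, integrins, matrix proteases, ABC transporters, calcium genes and Polycomb repressive complex 2, each had 0 to 2 genes called in either direction, and 0 to 3 when 1 array was left out. The 1 Eph or ephrin gene that rose was lost without +dox DMSO 2, +dox DMSO 3, +dox trametinib 1 or +dox trametinib 3, and the count was 2 without either of the other +dox arrays. The number of risen integrin genes went from 1 to 2 without +dox DMSO 1, +dox DMSO 3, +dox trametinib 1 or +dox trametinib 2, and that of risen proteases from 2 to 1 without +dox trametinib 3. The 1 fallen calcium gene and the 1 fallen Polycomb gene were lost without +dox DMSO 2, +dox DMSO 3, +dox trametinib 1 or +dox trametinib 3, and the 1 fallen epithelial-mesenchymal gene without +dox trametinib 1. The count of risen calcium genes was 2 without +dox trametinib 3, and that of fallen ABC transporters 2 without +dox DMSO 1. Jarid2, a subunit of Polycomb repressive complex 2, rose by 1.36 (adjusted p = 0.0041), and Abcg2, a drug efflux pump, fell by 1.55 (adjusted p = 0.0025).

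**Figure D3:**
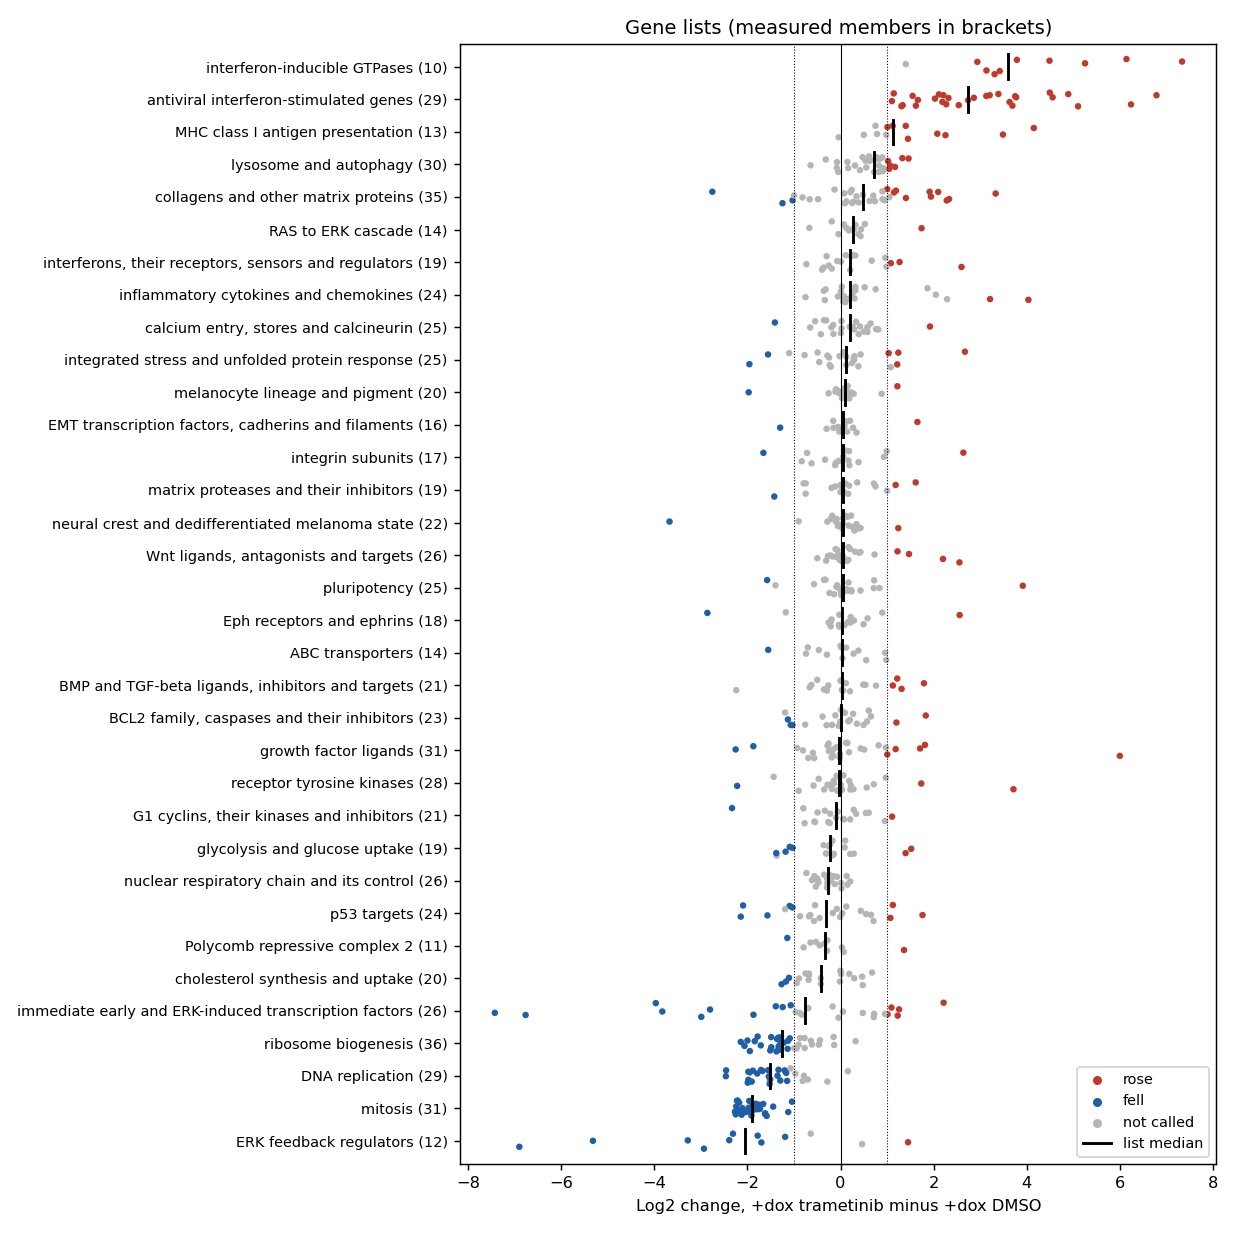
On the x axis is the log2 change between +dox trametinib and +dox DMSO for the measured members of 34 gene lists (rows, with the number of measured members), where red points rose, blue points fell, grey points were not called, bars are list medians and dotted lines mark 2-fold. The interferon lists stood at the top with medians of 2.74 and 3.60, and ERK feedback, mitosis, DNA replication and ribosome biogenesis at the bottom with medians of -2.04, -1.89, -1.51 and -1.26.

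**Figure D4:**
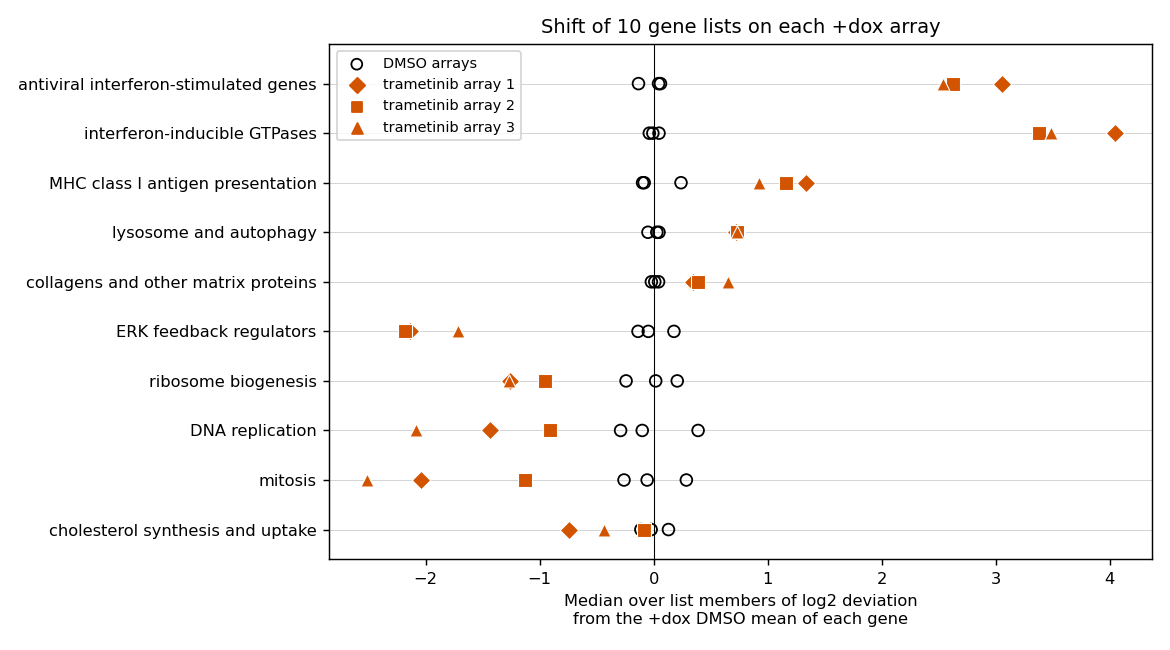
Median over the members of 10 lists of the deviation from the +dox DMSO mean of each gene (x axis, log2) on each +dox array, with open circles for DMSO arrays and filled symbols for trametinib arrays 1, 2 and 3. For the mitosis list the trametinib arrays stood at -2.04, -1.13 and -2.52, and for the lysosome list at 0.72, 0.73 and 0.73, while for the cholesterol list trametinib array 2 lay among the DMSO arrays.

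Of the 1754 genes called in +dox cells, 911 were also called in the same direction in −dox cells. The difference between the responses passed in limma (adjusted p under 0.05) for 60 genes, 0.330% of all, 47 higher and 13 lower in +dox cells. Of the 60, 35 rose and 8 fell in +dox cells. Blocking on the replicate number gave 141 (85 higher and 56 lower). Centring every array at its own median, which moved the median difference of all genes by -0.18, gave 217 (49 higher and 168 lower), and array weights gave 1066 (680 higher and 386 lower). Leaving out 1 array gave 179 (+dox DMSO 1), 15 (+dox DMSO 2), 13 (+dox DMSO 3), 20 (+dox trametinib 1), 34 (+dox trametinib 2), 200 (−dox DMSO 1), 21 (−dox DMSO 2), 16 (−dox DMSO 3), 141 (−dox trametinib 1), 29 (−dox trametinib 2) and 18 (−dox trametinib 3).

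By list, 4 of 29 antiviral genes and 3 of 10 GTPases had a higher response in +dox cells by this test. The count of GTPases was 0 without +dox DMSO 2, +dox DMSO 3, +dox trametinib 1, −dox DMSO 3 or −dox trametinib 3, 1 without +dox trametinib 3 or −dox trametinib 2, 6 without −dox trametinib 1 and 8 with array weights. That of antiviral genes was 1 without +dox DMSO 2, +dox DMSO 3, +dox trametinib 1 or −dox trametinib 3, 2 without +dox trametinib 2, +dox trametinib 3, −dox DMSO 2 or −dox trametinib 2, 10 without −dox DMSO 1, 14 without −dox trametinib 1, 8 with the replicate block and 21 with array weights. Their median changes were 2.74 and 3.60 in +dox and 0.93 and 1.88 in −dox cells. The genes of both lists that passed had DMSO means of 3.66 to 7.33 in +dox and 7.09 to 9.62 in −dox cells. The trametinib means of these genes were 10.54 to 13.41 in +dox and 9.83 to 12.32 in −dox cells. The ribosome biogenesis list had medians of -1.26 in +dox and -0.56 in −dox cells, and 22 against 7 genes fell, yet none of its 36 genes passed the test of the difference in limma. For mitosis the medians were -1.89 and -2.64, and for ERK feedback -2.04 and -2.79, with no gene of either list passing. Apcdd1, an inhibitor of Wnt signalling, rose by 3.46 in +dox cells, from 7.24, 6.68 and 6.37 to 10.67, 9.67 and 10.33, and by 1.13 in −dox cells, a difference of 2.33 (adjusted p = 0.027). Cpox, an enzyme of haem synthesis, fell by 1.52 in +dox and by 0.45 in −dox cells, a difference of -1.08 (adjusted p = 0.022). Egr2, an early growth response factor, fell by at least 1.70 in +dox cells, against at least 3.97 in −dox cells. Its measured difference passed (adjusted p = 0.039), but both trametinib means were under background, so no size is given for it here. None of these 3 differences passed without +dox DMSO 2, +dox DMSO 3, +dox trametinib 1, −dox DMSO 3 or −dox trametinib 2. Apcdd1 and Egr2 also failed without +dox trametinib 3, −dox DMSO 2 or −dox trametinib 3, and Egr2 without +dox trametinib 2, with adjusted p of up to 0.08 for Apcdd1, 0.098 for Egr2 and, with the mean of its probe sets, 0.2 for Cpox. Apcdd1, Cpox and Egr2 were named after their values were seen.

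**Figure D5:**
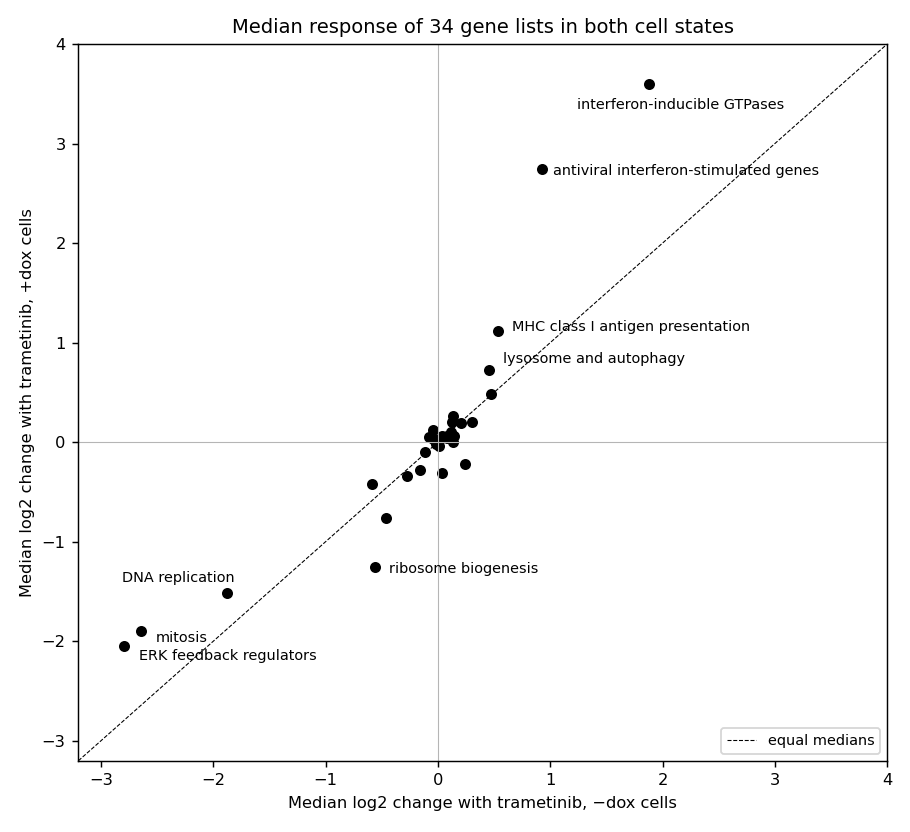
Each point is the median log2 change with trametinib of 1 of 34 gene lists, with −dox cells on the x axis, +dox cells on the y axis and a dashed line at equal medians. The GTPase list lies at 1.88 and 3.60, and the ribosome biogenesis list at -0.56 and -1.26.

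Called genes that neighbour each other on a chromosome were counted among the tested genes placed on GRCm38.p6. Of 859 placed genes that rose 145 (16.9%) had an adjacent gene that rose, and of 890 that fell 141 (15.8%) had one that fell. Of all 18032 placed genes, 9.2% had an adjacent gene that rose and 9.6% one that fell. Runs of 3 or more in a row numbered 10 for rises and 7 for falls. Trim12a, Trim12c, Trim30a and Trim30d, tripartite motif proteins of a cluster on chromosome 7 (104299893 to 104507853), rose by 1.73, 2.11, 2.86 and 2.68. Parp14, Dtx3l and Parp9, which act in ADP-ribosylation, lie in a row on chromosome 16 (35831892 to 35972621) and rose by 2.32, 2.17 and 2.60. Psmb9, Tap1 and Psmb8 lie together on chromosome 17 (34182030 to 34201454), and Aurkb ends a run of 4 fallen genes with Rangrf, Pfas and Ctc1 on chromosome 11 (68972484 to 69051664), of which Ctc1 was under 2-fold without +dox DMSO 2 (-0.98). Neighbouring TRIM genes are close copies, so their single values are uncertain. The Trim, Parp and Dtx3l genes, Rangrf, Pfas and Ctc1 were named after their values were seen.

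A further look within the array came from genes with several probe sets. The called genes had 1850 other probe sets in 1006 genes, of which 93.1% had the same sign and 43.7% were called the same way, and 1, of Mboat1, was called in the opposite direction. Among the 1267 above background these shares were 97.3% and 58.9%.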

How the data were processed

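Total RNA of 12 samples was hybridised to Affymetrix mouse genome arrays. The authors normalised the arrays together by RMA in Chipster and deposited log2 expression values for 45101 probe sets, given to 2 decimals. RMA summarises the probes of a set and equalises the distribution of values between arrays, so a change shared by all genes is not visible. Scanner files and detection calls were not used here, so the background level was set at the 95th percentile of 86 olfactory, vomeronasal and taste receptor probe sets. Of the probe sets, 34945 had 1 gene in the platform annotation, 932 had several, 9160 had none and 64 were controls. Each of 18193 genes was represented by 1 probe set, that of the highest mean across all arrays. Groups were taken from the labels. limma 3.58.1 in R 4.3.3 was fitted to all 4 groups together (lmFit and eBayes), with Benjamini-Hochberg adjustment over all genes, and the difference between responses was the interaction contrast. A gene was called at an adjusted p under 0.05 and over 2-fold. Deviations of same-numbered +dox DMSO and trametinib arrays from their group means correlated at 0.25, 0.45 and 0.16 for numbers 1, 2 and 3. Arrays of different number correlated at -0.43 to 0.19. The highest of these, DMSO 1 with trametinib 3, exceeded the same-numbered pair of trametinib 3, so the data pair numbers only in part. No label states a pairing. The fit behind the printed values has no block, and the replicate number as a block is an alternative. Tables and figures were made with Python 3.11.15, pandas 2.3.3, numpy 2.4.6 and matplotlib 3.10.9, and the fit was tested on simulated data. Promoter windows were taken from RefSeq on GRCm38.p6 and matched 14368 genes by Entrez gene ID. Members and gene lists were chosen with earlier results of these data known. The text names the 10 largest rises and falls with separated groups and a higher mean above background, from each list up to 4 called genes that moved the way most did and 2 that moved the other way, and 7 genes that the study names (Mitf, Pmel, Sox2, Fut4, Ngfr, Cacna1h and Cacna1g). Other genes are marked. Of 34 lists with 797 genes, 747 genes were measured, 4 through a synonym. The alternatives were the replicate block, the 6 +dox arrays alone, the mean of probe sets, all probe sets, a background filter, further quantile normalisation, median centring, array weights, trended and robust eBayes, other thresholds and leaving out each array. The number of arrays limits the precision.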

Additional observations from a re-analysis of the deposited data

Results flagged for a closer look

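The responses of +dox and −dox cells differed by the interaction contrast of limma for 11 genes printed here. The measured difference, +dox minus −dox on the log2 scale, was 4.60 for Iigp1, 4.65 for Ifit1, 3.44 for Gbp2, 3.36 for Gbp3, 3.59 for Rsad2 and 3.43 for Oasl2, all interferon-stimulated genes. It was 2.44 for Frzb, 4.05 for Cd3g, 2.33 for Apcdd1, 2.63 for Egr2 and -1.08 for Cpox. For 5 of these a group mean lay under the background level, so the measured size is not exact. With such means set to that level, the difference was at least 3.40 for Iigp1 and at least 4.65 for Ifit1. Frzb and Cd3g, under it in both −dox groups, and Egr2, under it in both trametinib groups, have no bound. Over 20 alternatives, Frzb and Cd3g passed in all, with highest adjusted p of 0.031 and 0.0019, and both had means under background in both −dox groups. Iigp1 did not pass in 7, Ifit1 in 5, Gbp2 in 5, Gbp3 in 10, Rsad2 in 9, Oasl2 in 9, Apcdd1 in 8, Cpox in 6 and Egr2 in 11. None of the 6 interferon-stimulated genes passed without +dox DMSO 2, +dox DMSO 3, +dox trametinib 1 or −dox trametinib 3, where the highest adjusted p over all alternatives was between 0.069 and 0.097. All 11 kept the sign of the difference in all 20 alternatives. With DMSO the 6 interferon-stimulated genes had means of 3.66 to 7.27 in +dox and 7.09 to 9.62 in −dox cells, each higher in −dox cells. With trametinib their means were 10.98 to 13.41 in +dox and 9.83 to 12.32 in −dox cells, each higher in +dox cells.

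Among 10092 probe sets that the annotation gives to no gene or to several genes, which enter no comparison above, 221 (2.19%) changed with trametinib in +dox cells by the same rule, 106 up and 115 down.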

How the results depend on the processing

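The number of genes changed in +dox cells lay between 1410 (mean of probe sets) and 1891 (array weights) over the alternatives that kept 1 value per gene and a 2-fold threshold, and between 1483 and 1851 when 1 array was left out. Testing all probe sets gave 2906 (1464 up and 1442 down), since more features were tested, and dropping the fold threshold gave 4772 (2503 up and 2269 down). The replicate block gave 1817, of which 1752 were shared with the 1754, and among named genes it changed the calls of Gbp8, Cxcl1 and Ccl7 and no other. The difference between responses was less stable, with 60 genes (47 higher and 13 lower in +dox cells). It was 141 (85 and 56) with the replicate block, 217 (49 and 168) after median centring and 1066 (680 and 386) with array weights. Those gave −dox DMSO 1 a weight of 0.20 and −dox DMSO 3 a weight of 6.98, where the other arrays had 0.52 to 1.78. The weighted fit thus leans on −dox DMSO 3. Leaving out 1 array gave 13 to 200 in all, 9 to 160 higher and 2 to 87 lower. The cause was not tested. Of 158 called named genes, 114 kept the call in all 23 settings, 44 lost it in 1 or more and 0 changed direction. Of 52 list counts, 19 stayed within 1.5 times in every setting. Values near the background level of 4.86 limit what falls of low genes can show, and 5950 genes lay under it in both groups.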
